A study of Mus musculus with 6 samples.

Results

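The 38 genes described here encode the enzymes and regulators with which a cell removes superoxide and peroxides and keeps its thiols reduced. They were chosen by symbol, from a list of superoxide dismutases, catalase, glutathione peroxidases, peroxiredoxins, thioredoxins, glutathione enzymes and the NRF2 stress response, and all 38 were found among the 15465 genes of the tables. The samples are wild-type C57BL6/J mouse retina, with no treatment named, and the labels give neither the age of the mice nor a batch. Per the titles there are 3 biological replicates with 2 technical replicates each, every library was made from a pool of 5 mice, and both technical replicates name the same table, so each gene has 1 value per biological replicate and n is 3. The source labels number the samples differently and would place the same source in more than 1 table, and the titles were followed. If the source labels are right, the 3 tables are not independent. With 1 group there is no treated or mutant retina to compare, and the results are the level of each gene, the proportions between genes, and the spread between pools.

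Values are given in RPKM (reads scaled by transcript length and by library size), a unit inferred from the numbers, and their read depth is unknown. All levels are from whole tissue, in which fewer cells of a type and less RNA per cell cannot be told apart. The 5 rod markers were high in every pool, with summed levels between 7667 and 8864 RPKM. Markers of neighbouring tissues were present too and differed between pools. The 10 lens markers had summed levels of 3984 RPKM in replicate 1, 2931 in replicate 2 and 3681 in replicate 3. For the 8 pigment epithelium markers the sums were 502, 477 and 271 RPKM. Of the 8 red blood cell markers 4 were among the rows, with sums of 3.44, 1.63 and 0.66 RPKM, and 2 of the 4 (Hba-a1 and Hba-a2) stood at 0 throughout. How reads that fit more than 1 gene were counted is not given, so these 0 values need not mean that blood was absent.

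Superoxide is a by-product of respiration, and the dismutases turn it into hydrogen peroxide. Catalase, the glutathione peroxidases and the peroxiredoxins then reduce the peroxide, the glutathione peroxidases mostly with electrons from glutathione and the peroxiredoxins mostly with electrons from thioredoxin, and both carriers are recharged from NADPH. In the retina the photoreceptors combine dense mitochondria, intense light and membranes rich in polyunsaturated lipid, which makes oxidative damage a classical theme of retinal degeneration.

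The redox genes lay above the typical gene of the retina. Their median was 14.5 RPKM, against 6.26 RPKM over all 15465 genes. In the 3 pools the median over the 38 genes was 14.7 ± 2.16 RPKM (SD, n = 3). A level of 1 RPKM or more in every replicate was reached by 37 of 38, against 77.5% of all genes, and the exception was Glrx2. A mean of 10 RPKM or more was reached by 26 of 38, against 37.8% of all genes, and a mean of 100 RPKM or more by Prdx5 alone, against 2.11% of all genes. Together they held 974 ± 168 RPKM, or 0.351% ± 0.0272 of the summed RPKM. The 12 peroxide-reducing genes took 51.7% ± 1.79 of that sum, the 11 glutathione genes 17.3% ± 0.634, the 7 thioredoxin genes 16.5% ± 0.191, the 3 dismutases 9.4% ± 0.722 and the 5 stress response genes 5.12% ± 0.468.

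**Figure D1:**
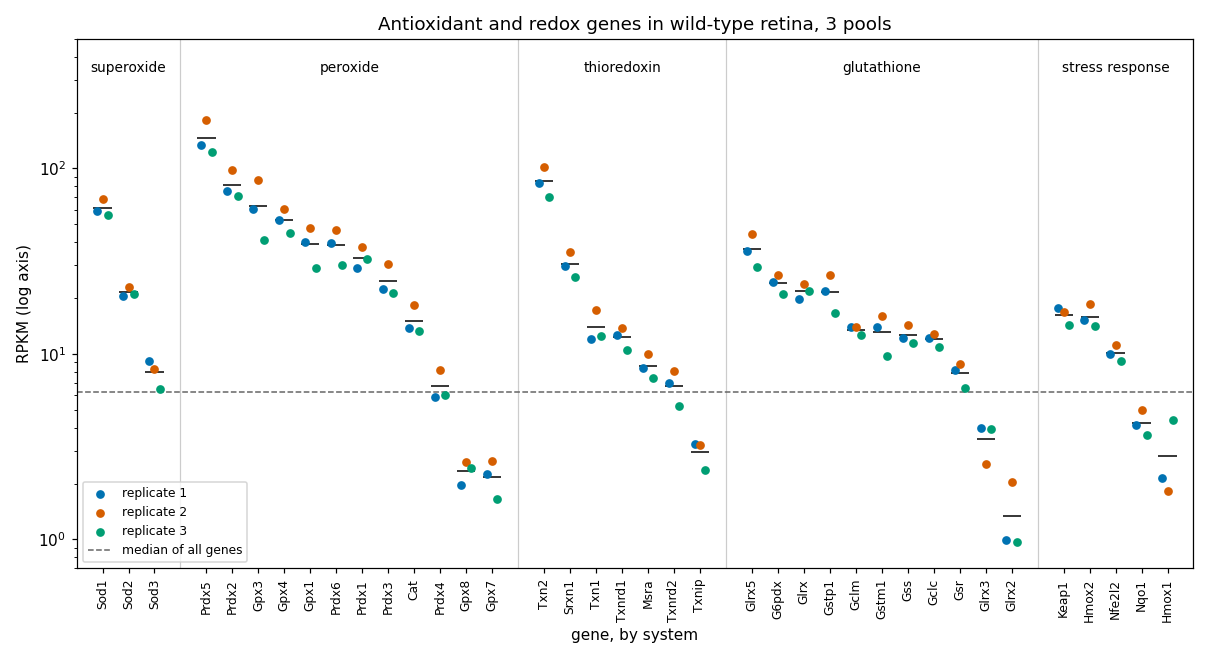
RPKM of each of the 38 redox genes (log axis) in the 3 wild-type retina pools, grouped by system. Points are pools, horizontal bars their means, and the dashed line is the median of all genes at 6.26 RPKM. Prdx5, Txn2 and Prdx2 stand highest, and Glrx2, Gpx7, Gpx8 and Hmox1 lowest.

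The 3 dismutases differ in where the protein resides. Sod1, the copper and zinc enzyme of the cytosol, had 59.3, 68.8 and 55.9 RPKM in replicates 1, 2 and 3, a mean of 61.3 ± 6.71 (SD, n = 3). Sod2, the manganese enzyme of the mitochondrial matrix, had 20.5, 23.0 and 20.9 RPKM. Sod3, which is secreted and binds to the extracellular matrix, had 9.18, 8.25 and 6.51 RPKM. The ranges of the 3 genes did not overlap, and Sod1 took 67.5% ± 1.13 of the family's RPKM, Sod2 23.7% ± 1.21 and Sod3 8.79% ± 1.34. The Sod1 to Sod2 ratio was 1.50 ± 0.08 on the log2 scale, 2.84-fold. This order is per kilobase. The Sod2 transcript used for length here is 5861 bases and that of Sod1 641. With the levels multiplied by these lengths the ratio became -1.68 and Sod1 held 20.1% of the family. Such a product follows the amount of reads rather than the number of transcripts, and the lengths behind the deposited values are not stated. Ccs, the chaperone that loads copper into Sod1, had 25.1 ± 5.85 RPKM.

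Peroxiredoxins are thiol peroxidases that are oxidised at a cysteine, and their levels spread widely. Prdx5, found in mitochondria, peroxisomes and cytosol, was the highest of all 38 genes with 134, 181 and 123 RPKM, a mean of 146 ± 31.1 and rank 192 of 15465 genes. Prdx2, a cytosolic enzyme abundant in neurons, had 75.9, 98.7 and 71.2 RPKM. Prdx6, the form that takes glutathione as its reductant, had 39.7, 46.4 and 30.03 RPKM, and Prdx1, the other main cytosolic form, had 29.0, 37.7 and 32.6 RPKM. Their ranges overlapped. Prdx3, the mitochondrial form, had 22.5, 30.5 and 21.4 RPKM, and Prdx4, the form of the endoplasmic reticulum, had 5.83, 8.18 and 6.03 RPKM. As shares of the 6-gene family, Prdx5 held 44% ± 0.953, Prdx2 24.8% ± 0.314, Prdx6 11.7% ± 1.18, Prdx1 10.1% ± 1.2, Prdx3 7.47% ± 0.13 and Prdx4 2.02% ± 0.115. Prdx5 exceeded Prdx3 5.87-fold, with a ratio of 2.57, 2.57 and 2.51 on the log2 scale in the 3 pools. Srxn1, the sulfiredoxin that rescues over-oxidised peroxiredoxins, had 29.6, 35.4 and 26.1 RPKM, close to Prdx1.

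Among glutathione peroxidases 3 genes carried nearly all of the RPKM. Gpx3, whose product is secreted and is best known from plasma, had 60.2, 86.9 and 41.3 RPKM, highest in replicate 2 and lowest in replicate 3. Gpx4, which reduces lipid peroxides within membranes and restrains ferroptosis, had 52.6, 60.4 and 44.8 RPKM. Gpx1, the main cytosolic form, had 40.3, 47.6 and 29.1 RPKM. Their shares of the family were 38.8% ± 4.41 for Gpx3, 33.7% ± 3.7 for Gpx4 and 24.6% ± 0.932 for Gpx1. Gpx7 (2.18 ± 0.507 RPKM) and Gpx8 (2.34 ± 0.327 RPKM), both of the endoplasmic reticulum, were low in every pool, with ranges that overlapped. Gpx2, best known from gut epithelium and not on the list of 38, held 0.00333% of the family. Cat, the peroxisomal catalase, had 13.7, 18.4 and 13.3 RPKM, so that Gpx1 exceeded it 2.54-fold per kilobase. Multiplied by length the ratio was near 0 (0.07 on the log2 scale, against 1.35 per kilobase).

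The annotation marks a selenocysteine, encoded by an in-frame TGA, in 5 of the 38 genes. They are the 3 high glutathione peroxidases and both thioredoxin reductases, and none is marked in Gpx7 or Gpx8. The 5 genes had a median of 39 RPKM. The codon is shown with its coding neighbourhood because these transcripts, unlike the rest of the list, need the selenium machinery to be read through. Sequences are from GENCODE M21 transcripts on GRCm38, all on the plus strand, in lower case with the selenocysteine codon in capitals. In Gpx1 it is codon 47 in exon 1 of 2 (chr9:108339451-108339453), in Gpx3 codon 73 in exon 2 of 5 (chr11:54907256-54907258) and in Gpx4 codon 129 in exon 3 of 7 (chr10:80054737-80054739). In Txnrd1 it is codon 498 in exon 14 of 14 (chr10:82896037-82896039) and in Txnrd2 codon 526 in exon 17 of 18 (chr16:18477772-18477774), and both reductases have 1 further codon before the stop, which ends the stretch shown.
Gpx1: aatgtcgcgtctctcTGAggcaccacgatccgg
Gpx3: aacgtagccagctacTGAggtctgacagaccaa
Gpx4: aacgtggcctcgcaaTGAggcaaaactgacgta
Txnrd1: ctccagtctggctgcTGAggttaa
Txnrd2: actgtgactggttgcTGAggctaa

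Of the thioredoxins, the small dithiol proteins that feed electrons to peroxiredoxins, the mitochondrial one was far higher. Txn2 had 83.8, 102 and 70.5 RPKM, a mean of 85.3 ± 15.6, and was the second highest of the 38 genes. Txn1, the cytosolic form, had 12.1, 17.3 and 12.5 RPKM. The Txn1 to Txn2 ratio was -2.61 ± 0.16 on the log2 scale, so Txn2 stood 6.1-fold above Txn1 and held 86% ± 1.3 of both. A processed copy, Txn-ps1, is 95.8% identical to Txn1, and how reads that fit both were counted is not given in the sources used here.

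The reductases that recharge thioredoxin with NADPH went the other way. Txnrd1, the cytosolic reductase, had 12.7, 13.7 and 10.5 RPKM and Txnrd2, the mitochondrial reductase, 6.96, 8.05 and 5.21 RPKM. Txnrd1 exceeded Txnrd2 1.84-fold in a family in which Txnrd3, known from testis, held 10.3% ± 0.847. Txnip, the arrestin-like protein that binds and inhibits thioredoxin and whose transcription follows glucose, had 3.26, 3.23 and 2.36 RPKM, 4.58-fold below Txn1. Msra, which repairs oxidised methionine, had 8.41, 10.1 and 7.38 RPKM.

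The genes of glutathione synthesis lay close together. Glutathione is made in 2 steps, of which the first is catalysed by glutamate-cysteine ligase, a pair of a catalytic subunit (Gclc) and a modifier subunit (Gclm). Gclc had 12.1, 12.9 and 10.9 RPKM and Gclm 13.97, 13.9 and 12.6 RPKM, and their ratio of -0.17 ± 0.05 on the log2 scale was small yet below 0 in every pool. Gss, the synthetase of the second step, had 12.2, 14.3 and 11.4 RPKM, a range that overlapped that of both subunits. Gsr, the reductase that regenerates glutathione, had 8.18, 8.87 and 6.55 RPKM. It lay below Txnrd1, its counterpart for thioredoxin, by a ratio of 0.64 ± 0.03 on the log2 scale. G6pdx, the X-linked gene of the first enzyme of the pentose phosphate pathway and a main source of NADPH, had 24.4, 26.5 and 21.0 RPKM.

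The transferases and glutaredoxins of the list were spread more widely. Gstp1, a transferase that attaches glutathione to electrophiles, had 21.9, 26.6 and 16.7 RPKM, and Gstm1, of the mu class, had 13.96, 15.97 and 9.74 RPKM. Both were lowest in replicate 3. Gstp1 has a close relative in Gstp2 (98.2% identical), which has no row. The Gstp1 level may hold reads of either gene or lack reads that fit both. Of the glutaredoxins, which use glutathione to reduce disulfides or to carry iron-sulfur clusters, Glrx5, the mitochondrial form of iron-sulfur cluster assembly, had 35.8, 44.4 and 29.6 RPKM and Glrx, the cytosolic form, 19.8, 23.9 and 21.8 RPKM. Glrx3 had 3.98, 2.56 and 3.92 RPKM and Glrx2 had 0.99, 2.03 and 0.97 RPKM. In replicate 2 Glrx3 was at its lowest and Glrx2 at its highest. All 4 glutaredoxins have symbols in which another gene's symbol is followed by a digit (or are that shorter symbol). Such symbols, called digit-extended here, differed between pools far more often than others in these tables: 29.8% of 2088 passed the test of variation described further on, against 0.535% of 10474 other genes. The 4 glutaredoxin rows are less certain for that reason than the other 34.

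The stress response list holds NRF2, its inhibitor and 3 enzymes. Nfe2l2 (NRF2), the transcription factor, had 10.1, 11.1 and 9.18 RPKM, and Keap1, the adaptor that sends NRF2 to degradation, had 17.6, 16.9 and 14.2 RPKM. Keap1 exceeded Nfe2l2 1.6-fold. Nqo1, a quinone reductase and textbook NRF2 target, had 4.16, 4.96 and 3.64 RPKM. Hmox2, the constitutive haem oxygenase, had 15.2, 18.5 and 14.1 RPKM. Hmox1, the form induced by haem and stress, had 2.15, 1.83 and 4.41 RPKM, highest in replicate 3. Hmox2 held 84.9% ± 7.74 of both, and its ratio to Hmox1 had the largest spread of the 16 pairs (2.56 ± 0.82 on the log2 scale).

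**Figure D2:**
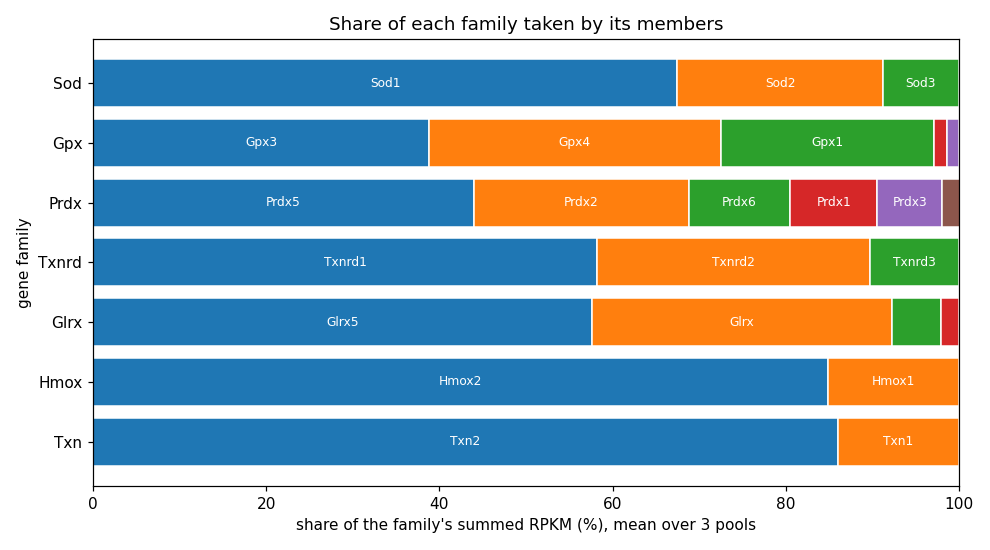
Share of each family's summed RPKM (%) taken by each gene, as the mean over 3 retina pools, with bars starting at 0 and segments ordered by size within a family. Colours mark the order within a family only, and segments without a name are members under 6%. Txn2 holds 86% of the thioredoxins, Hmox2 84.9% of the haem oxygenases and Sod1 67.5% of the dismutases, while Gpx3, Gpx4 and Gpx1 divide the glutathione peroxidases.

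The 16 chosen ratios between genes kept their direction in every pool. Ratios were taken within each pool for 16 pairs of redox genes, on log2(RPKM + 0.1). The sign was the same in 3 of 3 pools for all 16 pairs, with the gene named first higher in 13. As the pairs were chosen with earlier results of these data known and other pairs were not counted, the constant signs have no background. The SD of a ratio over pools ran from 0.03 on the log2 scale, for Prdx5 over Prdx3 and Txnrd1 over Gsr, to 0.82 for Hmox2 over Hmox1. An exact sign-flip permutation test over 3 pools (two-sided) cannot give a p below 0.25, which each of the 16 pairs reached, also after Benjamini-Hochberg adjustment. The ratios nearest to 0 were Gclc over Gclm and Gpx4 over Gpx1 (0.45 ± 0.15). Besides the Sod1 to Sod2 and Gpx1 to Cat ratios, 5 moved by over 1.5 times when levels were multiplied by length, on the log2 scale to 0.41 for Sod1 over Sod3 (2.93 per kilobase), 1.73 for Txnrd1 over Txnrd2 (0.88), -0.88 for Gclc over Gclm (-0.17), 1.37 for Keap1 over Nfe2l2 (0.68) and -0.81 for Txnip over Txn1 (-2.20).

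**Figure D3:**
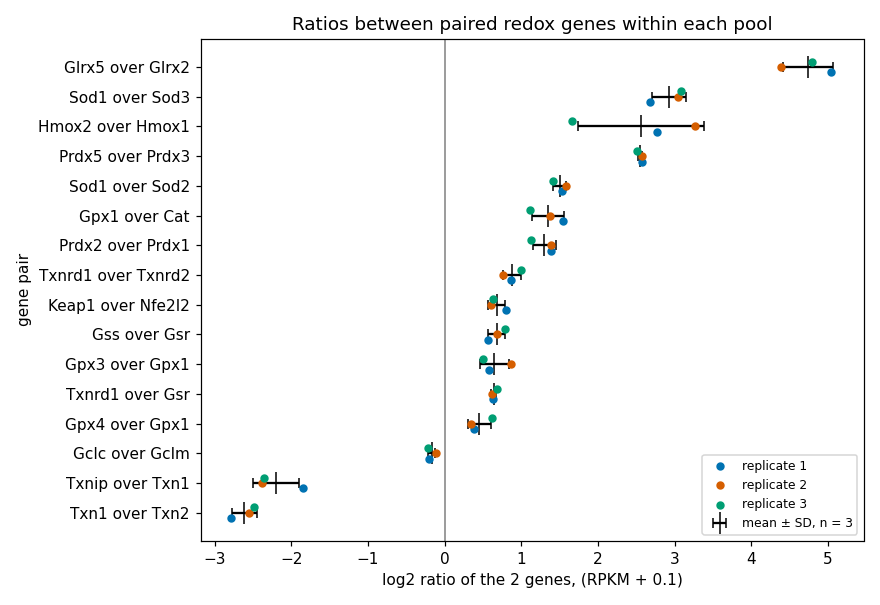
Log2 ratio of the RPKM + 0.1 of the 2 genes of each of 16 pairs, for each of the 3 retina pools (points) with the mean and SD. All pairs keep their side of 0 in every pool. Glrx5 over Glrx2 is the largest at 4.74 and Txn1 over Txn2 the lowest at -2.61.

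Most neighbours in the order of levels could not be told apart. Of the 37 pairs of neighbours in the order of means, 14 kept their order in 3 of 3 pools with a difference beyond its SD, and 23 did not. Prdx5 over Txn2 (0.77 ± 0.08 on the log2 scale), Prdx4 over Nqo1 (0.63 ± 0.14) and Gpx7 over Glrx2 (0.73 ± 0.36) were the widest steps. Gpx3 could not be ranked against Sod1 (-0.03 ± 0.39), nor Gpx1 against Prdx6 (0.00 ± 0.04). Between Txn1 at 13.9 RPKM and Gclc at 12 RPKM, the genes Gclm, Gstm1, Gss and Txnrd1 did not differ from their neighbours beyond the spread.

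The pools were then compared with each other, to find genes that varied more than others of like abundance. In an F test, each gene's variance on log2 (scaled RPKM + 0.1) was set against the variance limma expects at its mean. With limma's robust trended prior, 0 of 38 redox genes had an adjusted p under 0.05 and so were called, against 5.41% of 12562 genes tested. Of the 679 called genes 623 had digit-extended symbols. Among the other genes tested, to which 34 of the 38 belong, 0.535% of 10474 were called. With limma's non-robust prior no gene was called, 0 of 38 and 0 of 12562. Before adjustment 4 of 38 had p under 0.05 with the robust prior, against 8.32% of genes tested. These 4 were Hmox1 (adjusted p = 0.0631 in limma), Gpx3 (adjusted p = 0.381 in limma), Glrx3 (adjusted p = 0.453 in limma) and Glrx2 (adjusted p = 0.581 in limma). The median SD over pools was 0.15 on the log2 scale for the 38 genes and 0.15 for all genes tested. The steadiest were Nfe2l2 (SD 0.03 on the log2 scale), Sod1 (0.04), Gclc (0.04) and Gss (0.05).

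Hmox1 was the redox gene closest to the threshold. Its deviations from its own mean were -0.24, -0.60 and 0.84 on the log2 scale in replicates 1, 2 and 3. With digit-extended symbols left out Hmox1 passed (adjusted p = 0.00107 in limma), as 1 of 34 redox genes against 0.936% of 10474 genes. It also passed without replicate 2 (adjusted p = 0.00844 in limma), as 1 of 38 against 2.44% of genes tested. With replicate 3 left out it did not (adjusted p = 0.996 in limma), and 0.00107 to 0.996 is the range over all alternatives. No scaling called 2 of 38, Hmox1 and Glrx2, against 6.32%, and median scaling called Hmox1, against 5.7%. No redox gene was called with a pseudocount of 1 (5.39% of all genes), a mean filter of 0.1 RPKM (4.94%) or 10 RPKM (3.95%), without replicate 1 (3.67%) or replicate 3 (3.5%), or with the trend on transcript length removed from all genes (4.56%) or also without digit-extended symbols (0.487%). Most lens markers had the same order of pools as Hmox1, but their scaled sum did not. After scaling, 9 of the 10 were lowest in replicate 2 and highest in replicate 3, against 20.4% of genes tested, and 6 of the 10 were called, against 5.41%. Cryaa, the exception, was lowest in replicate 2 too, and with Crybb2 it makes up most of the lens sum. After scaling that sum was 4049, 2689 and 3953 in replicates 1, 2 and 3, highest in replicate 1. Of the called lens genes, the crystallin Crygd had 130, 54 and 371 RPKM in replicates 1, 2 and 3, and Lgsn had 10.2, 2.66 and 43.0 RPKM. Of the 2 red blood cell markers above 0, Alas2 (0.42, 0.38 and 0.66 RPKM) had that order as well, and Slc4a1 (3.02, 1.25 and 0 RPKM), a digit-extended symbol, did not. Of the 8 macrophage and microglia markers, cells in which Hmox1 is well known, 1 had that order (Cx3cr1), and of the 5 tested 0 were called, against 5.41% of genes tested. Their summed level after scaling was 27.2, 30.3 and 25.1 in replicates 1, 2 and 3. The part of lens and of these cells in the Hmox1 values was not tested.

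A shared pattern ran through many of the other genes. After scaling, 23 of 38 redox genes were highest in replicate 2, against 34.7% of genes tested, and 26 of 38 were lowest in replicate 3, against 35.7%. Both held for 18 of 38, against 19.4%. The median deviation of the 38 genes was 0.01, 0.10 and -0.10 on the log2 scale in replicates 1, 2 and 3, against 0.00 in each for all genes tested. It was widest among the 12 peroxide genes (-0.07, 0.17 and -0.11), of which 10 were highest in replicate 2, with Prdx1 and Gpx8 as the exceptions. Gpx3 (0.03, 0.41 and -0.43) and Gpx1 (0.10, 0.19 and -0.29) had the largest deviations there. Without scaling, 32 of 38 were highest in replicate 2, against 64.3% of genes tested, 30 of 38 were lowest in replicate 3, against 54.6%, and both held for 26 of 38, against 41.9%. With a mean filter of 10 RPKM, after which scaling was computed anew, 17 of 26 were highest in replicate 2, against 2122 of 5851 genes. Lowest in replicate 3 were then 11 of 26, against 34.6%.

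Transcript length moved with this pattern. The 38 genes are short, with a median of 1582 bases, against 2908 bases for genes tested, and 31 of 38 are no longer than that. When genes tested were divided by length into 10 bins of equal size, the median of replicate 2 minus replicate 3 was 0.23 on the log2 scale in the shortest bin and -0.36 in the longest. Over the 38 genes it was 0.21, with 31 of 38 above 0, against 50.9% of genes tested that have a length. Set against genes of like length, 27 of 38 lay above the median of their bin. With a smooth trend on length removed from each pool, 11 of 38 were highest in replicate 2, against 30.7% of genes tested, and 20 of 38 were lowest in replicate 3, against 35.7%. The median deviation was then 0.02, 0.03 and -0.04 in replicates 1, 2 and 3. Among the 12 peroxide genes it was -0.06, 0.06 and -0.03, with 5 highest in replicate 2 and 4 lowest in replicate 3. Lowest in replicate 3 were then 6 of 7 thioredoxin, 7 of 11 glutathione, 1 of 3 superoxide and 2 of 5 stress response genes. In the 2 longest of the 38, Sod2 and Gclm, replicate 2 minus replicate 3 was -0.09 each.

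**Figure D4:**
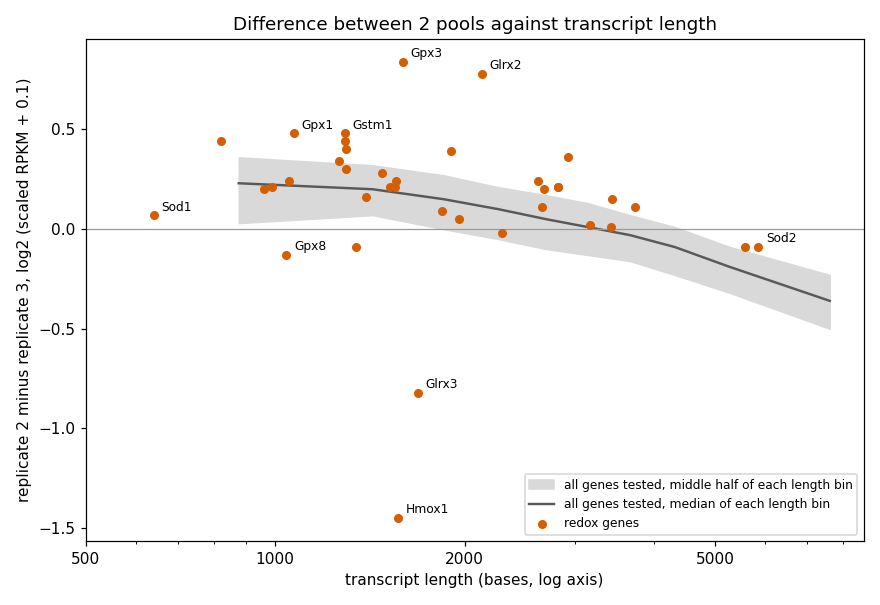
Replicate 2 minus replicate 3 on log2 (scaled RPKM + 0.1) against transcript length in bases (log axis). Orange points are the 38 redox genes, the line is the median of genes tested in 10 length bins and the band runs from the lower to the upper quartile of each bin. Most redox genes are short and lie near or above the line, with Gpx3 (0.84) and Glrx2 (0.78) highest and Hmox1 (-1.45) and Glrx3 (-0.82) lowest.

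Several markers of other cells were also lowest in replicate 3. The counts and sums given here are after scaling, with the trend on transcript length not removed. Of genes tested 35.7% were lowest there, and 7 of 8 pigment epithelium markers were, all but Rpe65. So were 5 of 5 muscle markers, 4 of 6 Muller glia markers, all but Glul and Slc1a3, and 3 of 5 vascular markers, all but Kdr and Cdh5. Of the other lists it held for 3 of 8 macrophage and microglia and 2 of 6 cornea and conjunctiva markers. It held for 1 of 5 rod, 1 of 2 red blood cell and 0 of 10 lens markers. The scaled sums were 510, 438 and 291 for pigment epithelium in replicates 1, 2 and 3. They were 1949, 1840 and 1516 for Muller glia and 65.3, 59.4 and 45.3 for the vascular markers. Muscle markers had scaled sums of 8.39, 21.5 and 6.32, and rod markers of 7791, 8133 and 8351. Called were 4 of the 7 pigment epithelium markers tested, 1 of 5 vascular and 0 of 6 Muller glia markers, against 5.41% of genes tested. Of the muscle markers tested 2 of 4 (Acta1 and Tnni2) were called, of cornea and conjunctiva 3 of 4 and of rods 0 of 5. Rpe65, which was among the calls, is a digit-extended symbol and was highest in replicate 2. The part of these tissues and cells in the lower Gpx3, Gpx1, Gstm1, Gstp1 and Sod3 values of replicate 3 was not tested.

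Further redox genes, from lists of related pathways, gave the surroundings of the 38. Of 127 related genes among the rows, 102 were tested for variation between pools and 0 had an adjusted p under 0.05 with limma's robust prior, against 5.41% of genes tested. Among genes whose symbols are not digit-extended, to which 101 of the 102 belong, the share was 0.535%. With the non-robust prior 0 of 102 and 0 of 12562 did. Before adjustment 4 of 102 had p under 0.05, against 8.32%. When digit-extended symbols were left out, 3 of 101 passed, against 0.936% of genes tested, the transferase Gsto1, the mitochondrial carrier Ucp2 and the selenium carrier Sepp1, with values given in the closing section. The median of the 127 related genes was 8.33 RPKM, against 6.26 RPKM over all genes. A mean of 10 RPKM or more was reached by 59 of 127, against 37.8% of all genes.

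NADPH supply was well represented, with 9 of 14 genes at 10 RPKM or more, against 37.8% of all genes. Tkt (84.5 ± 17.2 RPKM) and Taldo1 (49.4 ± 8.31 RPKM) of the non-oxidative and Pgls (43.6 ± 10.3 RPKM) of the oxidative pentose phosphate pathway led, all above G6pdx. Among 20 glutathione transferases Gstm5 (47.8 ± 8.67 RPKM) preceded Gsto1 (25.1 ± 13.5 RPKM) and Mgst3 (25 ± 6.13 RPKM), and Gstm5 thus had a higher mean than Gstm1 and Gstp1. Of the 15 genes of glutathione supply and breakdown, Hagh (62.4 ± 13.6 RPKM) and Glo1 (44.1 ± 5.93 RPKM), which together detoxify methylglyoxal, and Slc3a2 (43.2 ± 9.4 RPKM), a heavy chain shared by several amino acid transporters, were highest. Slc7a11, the light chain specific to cystine, was low at 0.54 ± 0.0346 RPKM, and its symbol is digit-extended.

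Other oxidoreductases were higher still. Park7 (128 ± 31.4 RPKM), a redox-sensitive protein known from Parkinson disease, led 23 genes. It was followed by Nxnl1 (105 ± 5.96 RPKM) and Nxnl2 (98.6 ± 16.4 RPKM), which encode the thioredoxin-like rod-derived cone viability factors, and both exceeded Txn1 and Txn2 in mean level. Among 17 selenoprotein and methionine sulfoxide reductase genes Sepw1 (207 ± 42.3 RPKM) was highest, above each of the 38, followed by Sep15 (42.1 ± 8.76 RPKM) and Selm (35.2 ± 9.12 RPKM). Of 24 NRF2 partners and further NRF2-regulated genes, the ferritin genes Fth1 (369 ± 62.5 RPKM) and Ftl1 (76.5 ± 18.4 RPKM) and the autophagy receptor Sqstm1 (137 ± 30.1 RPKM) led. Dedicated sources of oxidants were low. Of 14 such genes none had a mean of 10 RPKM or more, against 37.8% of all genes. The highest were Nos3 (4.52 ± 0.325 RPKM), endothelial nitric oxide synthase, Cyba (4.31 ± 1.3 RPKM), a subunit of NADPH oxidase, and Maoa (2.05 ± 0.425 RPKM).

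NRF2 acts through antioxidant response elements, and the core letters TGACNNNGC were searched on both strands of RefSeq promoter windows (GRCm38.p6, 250 bases before to 50 after each start). Windows were found for 32 of the 38 genes, and 7 of the 32 held the motif, 21.9%, against 17.2% of genes tested that have a window. The 6 without a window, Gclc, Hmox1, Msra, Gsr, Sod3 and Prdx6, were not searched, nor was any sequence outside the windows. By window it was 15.9% of 44 windows, against 14.3% of the windows of genes tested. The AP-1 letters TGAGTCA, which can overlap the motif, were in 4 of the 32 genes (Srxn1, Prdx1, Glrx and Gstp1), 12.5%, against 4.05% of genes tested. The 7 genes with the motif had a median of 24 RPKM and the other 25 had 15.9 RPKM. The matches are printed with 10 bases on each side along the gene's strand, with the motif or its reverse complement in capitals, because the letters around the core differ from gene to gene. A match is a description of letters and not a site.
Srxn1 (chr2:152105542-152105570, plus strand): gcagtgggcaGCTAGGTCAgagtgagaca
Prdx1 (chr4:116685456-116685484, plus strand): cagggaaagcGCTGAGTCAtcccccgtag
Gclm (chr3:122245413-122245441, plus strand): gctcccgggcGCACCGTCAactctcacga
Txnrd1 (chr10:82859104-82859132, plus strand): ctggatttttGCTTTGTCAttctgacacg
Sod1 (chr16:90220696-90220724, plus strand): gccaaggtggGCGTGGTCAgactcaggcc
G6pdx (chrX:74428919-74428947, minus strand): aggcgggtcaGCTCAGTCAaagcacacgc
Nfe2l2 (chr2:75704885-75704913, minus strand): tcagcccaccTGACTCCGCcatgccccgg

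In Prdx1 the match overlaps an AP-1 match, and in Srxn1 the matches stand apart. In Srxn1, 45 bases before the start, and in Gstp1, 74 bases before it, TGAGTCA is followed by GC. These letters differ from the searched core by a G in place of its C and were not counted as the motif. Of the 7 genes Sod1 had the highest mean, at 61.3 RPKM, and Nfe2l2 itself the lowest, at 10.1 RPKM.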

How the data were processed

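The deposited values are 1 table per biological replicate of wild-type retina, for which the authors used GSNAP and HTSeq on mm9, per the submitters' processing notes. Neither versions nor annotation and filters are stated there. The deposited unit, RPKM, is inferred from the values (2 decimals, summing to 275995, 302634 and 249532) and cannot be told from FPKM. Of 15468 rows, 3 symbols stood on 2 identical rows, which left 15465 genes. No count test applies. Each gene's variance on log2(RPKM + 0.1), after a trimmed-mean scaling (factors 0.984, 1.09 and 0.931), was set against the robust trended prior variance of limma 3.58.1 (R 4.3.3). An F test did so, with the largest prior degrees of freedom of the fit used for every gene. It covered the 12562 genes averaging at least 1 RPKM, with Benjamini-Hochberg adjustment at 0.05. Adjusted p-values given as in limma come from this F test on limma's variances. Lengths are medians of GENCODE M21 transcripts linked to RefSeq (98.5% of genes). Digit-extended symbols (2656 genes) were defined from symbols of the tables and RefSeq. Near-identical copies, at 95% identity or more over 300 bases or more, were found among transcripts for 8 of the 38 genes (Sod1, Gpx4, Prdx1, Prdx2, Txn1, Glrx3, Gstm1 and Gstp1), whose levels are uncertain where reads were shared. Technical and biological spread cannot be told apart beyond what the titles state, and p-values measure the spread between these 3 pools. The genes, lists and pairs were chosen with earlier results of these data known. All 38 genes are named, as are the leading 3 genes of each related list and those past the test. Alternatives were another pseudocount, filter, scaling or prior, leaving out digit-extended symbols or each replicate, multiplying by length and, added after seeing the data, removing a length trend.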

Additional observations from a re-analysis of the deposited data

How the results depend on the processing

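No paired analysis was possible because there is 1 group. The count of 0 of 38 redox genes varying between pools became 2 with no scaling (Hmox1 and Glrx2), 1 with median scaling and 1 without digit-extended symbols (Hmox1 each time), and from 0 to 1 with a replicate left out. Over all genes, 679 called genes became 231 with a mean filter of 10 RPKM, 0 with the non-robust prior, 98 without digit-extended symbols, 51 when the length trend was removed as well (added after seeing the data), and from 306 to 461 with a replicate left out. Genes highest in replicate 2 numbered 23 of 38, and 11 with the length trend removed. Genes lowest in replicate 3 numbered 26 of 38, and 11 of 26 with the filter of 10 RPKM, against 34.6% of genes tested there. Of those 26, 19 were lowest in replicate 3 with the filter of 1 RPKM. Their deposited values are the same under both filters, and only the scaling was computed anew. Multiplying by transcript length gave a median over the 38 genes of 33.2 RPKM times kilobases (18.4 over all genes), a median leading family share of 69.5%, against 58.2% per length, and reversed the Sod1 to Sod2 ratio (-1.68 on the log2 scale). With a replicate left out the median share was between 58.5 and 60%. The cause of the other moves was not tested. No pair of the 16 other than Sod1 to Sod2 changed sign under a pseudocount of 1, without each replicate or times length. The unknown depth limits what can be said of genes near 1 RPKM, such as Glrx2.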

Other observations

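Of 101 related genes tested, 3 varied between pools once digit-extended symbols were left out, against 0.936% of genes tested. Gsto1, an omega-class glutathione transferase, had 17.1, 40.6 and 17.6 RPKM in replicates 1, 2 and 3 and stood apart in replicate 2 (adjusted p = 0.00203 in limma, against 0.0707 with all symbols). Sepp1, the selenium transport protein of plasma, had 17.99, 20.8 and 9.39 RPKM (adjusted p = 0.0216 in limma, against 0.153), and Ucp2, a mitochondrial carrier, had 14.02, 11.97 and 6.75 RPKM (adjusted p = 0.0393 in limma, against 0.197). Both were lowest in replicate 3. These genes were singled out after their values were seen.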
